A study of Mus musculus with 15 samples.

Results

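Choroid plexus papilloma, the benign tumour of the epithelium that secretes cerebrospinal fluid, was set against normal choroid plexus of the mouse over all genes. The comparison rests on 10 of the 15 arrays of the series, 5 titled as papilloma and 5 titled as normal choroid plexus, with 1 tissue sample on each array. The other 5 arrays hold choroid plexus carcinoma and enter the shared estimate of the spread and, where stated, a direct comparison with papilloma. All mice had a mixed C57Bl/6 and 129 background and carried the genotype written Myc/Myc in the labels. Papillomas came from mice labelled Atoh1-Cre; Myc/Myc, and carcinomas from mice labelled Atoh1-Cre; Myc/Myc; p53fl/fl. Normal tissue came from mice labelled Myc/Myc; p53fl/fl, so the normal group carried a floxed p53 allele without Cre and the papilloma group had Cre without a floxed p53 allele. Effects of tumour, Cre and the floxed allele cannot be told apart by these groups. Cre acts here only in cells that use, or once used, the regulatory sequence of Atoh1, a transcription factor of the rhombic lip. The samples came from different mice per the series description, and tumours were taken when animals showed signs of disease. The labels state neither age nor sex.

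The choroid plexus epithelium is a single layer of cuboidal cells that lies on a vascular stroma in the brain ventricles. Its cells carry tufts of cilia, move ions and water from blood to ventricle, hold the blood to cerebrospinal fluid barrier through tight junctions, and release carrier proteins such as transthyretin. Myc is a transcription factor that pairs with Max and is known for raising ribosome production, nucleotide synthesis and entry into the cell cycle.

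Values are log2 RMA summaries per probe set, so a difference of 1 is a 2-fold change. A level written with ± is the mean and SD of the 5 arrays of a group, and a single signed value in brackets is the log2 difference, papilloma minus normal. A gene is said to rise or fall only where limma's adjusted p was under 0.05, and of the 179 such genes named here, all but 2 (Hes1 and H2-Aa) had no overlap between the papilloma and normal arrays. This is in part fixed by the choice, which took genes without overlap or with the largest changes. For comparison, 33.2% of all genes were called and 32.1% had no overlap. Of the 41345 probe sets, 23521 were paired with 1 gene symbol, and the brightest of each gene left 22180 genes. The median of all probe sets was 6.84, which marks the range where dim genes lie. In a principal component analysis of the 10 arrays the leading component took 70.7% of the variance and parted the groups, with normal arrays at -46.14 to -43.52 and papillomas at 38.35 to 48.70. Correlations between arrays over all genes, which are not independent replicates, were 0.9918 to 0.9962 within normal tissue, 0.9837 to 0.9928 within papilloma and 0.9556 to 0.9641 across. The median SD of a gene over 5 arrays was 0.12 in normal tissue and 0.15 in papilloma. Arrays have no read depth, and their number limits the precision.

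Myc measured 7.52, 7.62, 7.71, 7.72 and 7.7 in the normal arrays and 8.07, 8.15, 8.42, 8.45 and 8.2 in the papillomas. Every papilloma lay above every normal array, and the difference was 0.60 (SE 0.14, limma adjusted p = 0.00228). Atoh1 was at 6.66 to 6.9 in normal tissue and 6.72 to 6.98 in papilloma, near the median over probe sets in both, with a difference of 0.10 (SE 0.10, limma adjusted p = 0.473). Neither probe set tells an engineered allele from the wild-type one.

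The tissue label was checked on 9 measured markers of the choroid plexus epithelium. Their mean level was 13.02 to 13.1 in normal tissue and 12.42 to 12.7 in papilloma, in every array far above 6.84, the median over probe sets. Ttr, which encodes transthyretin, read 14.55 to 14.58 in normal tissue and 14.42 to 14.49 in papilloma, near the highest value on the arrays, a difference of -0.09 (SE 0.05, limma adjusted p = 0.198). A probe set at the top of the scale may be saturated, so this value does not show whether Ttr differed. Over all genes 16.3% fell and 17.0% rose, the background for each marker list. Of these markers 6 fell and 0 rose, among them the serotonin receptor gene Htr2c (fell by 1.09 on the log2 scale, SE 0.14), the folate receptor gene Folr1 (fell by 0.73) and the chloride channel gene Clic6 (fell by 0.52). The defining markers of this epithelium were thus high in both groups and in part lower in papilloma.

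Transcripts of neighbouring tissue differed between arrays. Papillomas 2 and 4 held high levels of genes of cerebellar neurons. The granule cell receptor gene Gabra6 measured 5.28, 10.18, 5.57, 9.13 and 5.24 in papillomas 1 to 5 and 7.09, 6.38, 6.46, 6.59 and 6.75 in the normal arrays. Cbln3, made by the same cells, measured 6.83, 11.04, 6.92, 9.95 and 6.69 in the papillomas and 7.3 to 8.03 in normal tissue, and Calb1, a calcium buffer of Purkinje cells, measured 5.52, 11.14, 6.65, 10.56 and 6.67 and 8.01 to 8.93. The mean of 19 neuron markers was 8.86 and 8.19 in papillomas 2 and 4, between 7.06 and 7.23 in the other 3 papillomas, and 8.02 to 8.43 in normal tissue. In that mean papillomas 2 and 4 stood above the other 3 tumours, papilloma 2 lay above the normal arrays and papilloma 4 within their range. Counts that moved by more than 1.5 times without papillomas 2 and 4 are given both ways. Of the neuron markers 5 fell and 0 rose with all arrays, 14 fell without those 2 papillomas and 11 without papilloma 2 alone, and 3 with dim genes left out. The part of that tissue in any single result was not tested.

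The normal arrays in turn held genes of the pituitary and the meninges. Gh, the growth hormone gene, measured 9.66, 9.93, 9.84, 10.33 and 10.36 in normal tissue and 7.42, 6.76, 7.8, 6.94 and 8.17 in papilloma, and the gonadotropin gene Lhb 9.64 to 10.08 and 6.56 to 6.99. The mean of 10 pituitary markers was 7.36 to 7.92 and 6.29 to 6.76, with 6 lower and 0 higher in papilloma. Of 15 meningeal markers 12 fell and 0 rose, and their mean was 8.46 to 8.71 in normal tissue and 7.19 to 7.53 in papilloma. Slc47a1, an organic cation transporter, fell by 2.54 on the log2 scale. Sex-linked transcripts showed a further difference between the groups. Xist, which coats the silenced X chromosome in females, measured 6.35, 11.2, 11.72, 10.69 and 12.48 in the normal arrays, and the Y-linked Uty 10.29, 10.25, 10.09, 10.44 and 7.98, so normal arrays 2 to 5 had both. Papillomas 1, 2 and 5 had Uty (10.11, 10.23, 5.2, 5.3 and 10.34) and papillomas 3 and 4 had Xist (6.66, 6.0, 11.79, 12.03 and 6.42), 1 of the pair in each tumour. The labels do not state whether a normal sample held tissue of more than 1 animal.

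**Figure D1:**
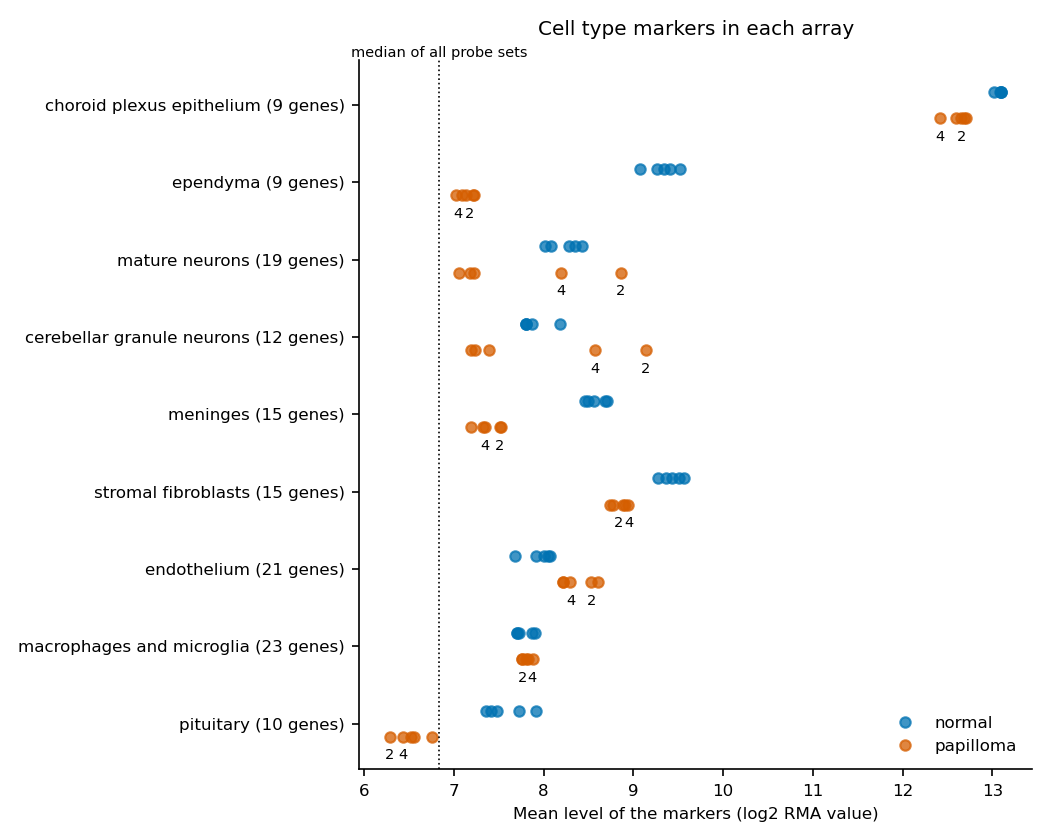
Mean log2 level of the marker genes of 9 cell types in each of the 5 normal (blue) and 5 papilloma (orange) arrays, 1 point per array, with papillomas 2 and 4 numbered. Papillomas 2 and 4 stand above the other papillomas in the neuron and cerebellar granule neuron rows. The choroid plexus epithelium, ependyma, meninges, stromal fibroblast, endothelium and pituitary rows do not overlap between the groups.

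Of the 22180 genes, 3763 (17.0%) rose in papilloma and 3611 (16.3%) fell at a limma adjusted p under 0.05. Changes of at least 2-fold made up 7.45% of genes, with 764 rises (3.44%) and 888 falls (4.0%). For 32.1% of genes no papilloma array overlapped a normal array. Without papillomas 2 and 4 the counts were 3384 higher and 3333 lower. These shares are the background against which each gene group is read.

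**Figure D2:**
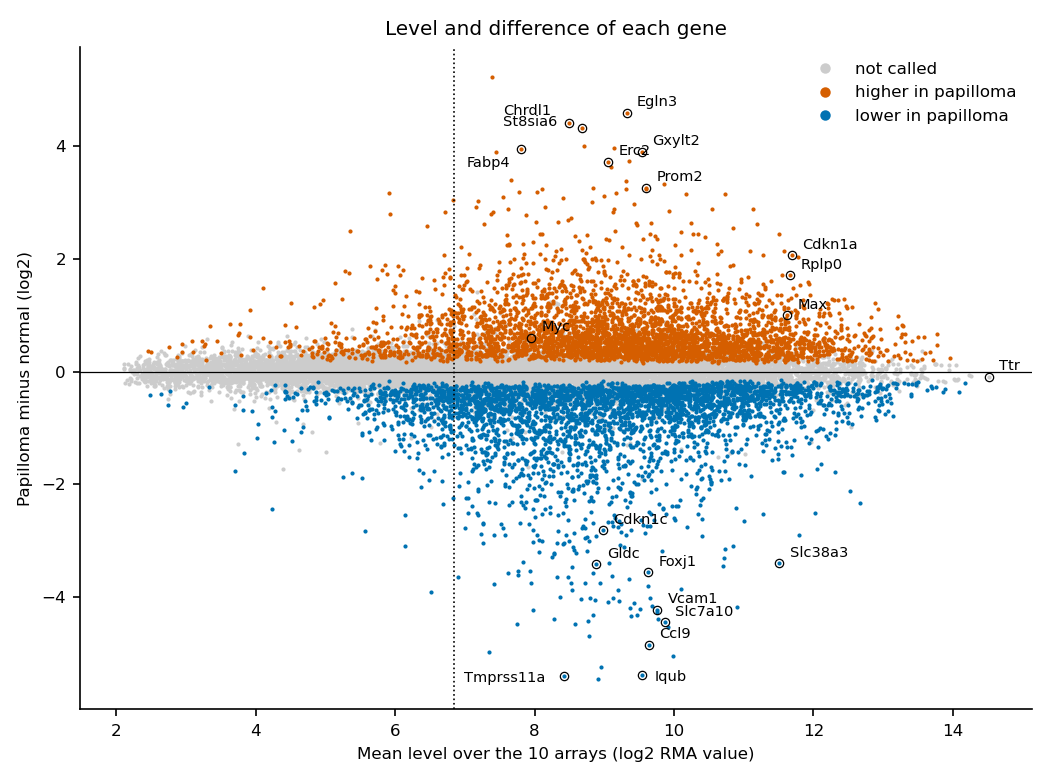
Mean log2 level over the 10 papilloma and normal arrays (horizontal) against the log2 difference, papilloma minus normal (vertical), for each of 22180 genes. Genes higher in papilloma at a limma adjusted p under 0.05 are orange, lower ones blue and the others grey, with named genes labelled, and the dotted line marks the median of all probe sets.

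The genes that rose most encode proteins of unlike kinds, and several are textbook neuronal or adipocyte genes. Egln3, a prolyl hydroxylase that tags hypoxia-inducible factor, went from 7.03 ± 0.48 in normal tissue to 11.61 ± 0.27 in papilloma (24.0-fold, SE 0.37 on the log2 scale, limma adjusted p = 9.81e-08). Chrdl1, a secreted antagonist of bone morphogenetic proteins, went from 6.3 ± 0.17 to 10.7 ± 0.38. Erc2, a scaffold of the presynaptic active zone, measured 7.29, 7.09, 7.42, 7.0 and 7.14 in normal tissue and 10.99, 10.85, 10.95, 10.91 and 10.86 in papillomas 1 to 5. Its papilloma values span less than 0.2, with no split between papillomas 2 and 4 and the rest. Slc17a8, a vesicular glutamate transporter, went from 7.49 ± 0.20 to 11.22 ± 0.35, and the potassium channel gene Kcnma1 from 7.28 ± 0.28 to 10.9 ± 0.17, while a dimmer probe set of Kcnma1 differed by only 0.30. The sialyltransferase gene St8sia6 (4.31), the xylosyltransferase gene Gxylt2 (3.9), the membrane protrusion gene Prom2 (3.26, 11.14 to 11.37 in papilloma) and the extracellular matrix gene Spon1 (3.25) rose with no overlap between the groups. Of 38 presynaptic genes measured, 2 rose, Erc2 and Slc17a8, and 8 fell (median -0.08), against 17.0% and 16.3% of all genes. The vesicle protein gene Sv2a (-2.04, SE 0.39) was among the presynaptic genes that fell. Without papillomas 2 and 4, 2 of these genes were higher and 22 lower, and without papilloma 2 alone 13 were lower.

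The genes that fell most were led by genes of motile cilia, transporters and immune mediators. Because a fall that ends below the median of all probe sets has an uncertain size, the falls that stayed above it in both groups are given first. Iqub and Drc7, which belong to the ciliary axoneme, fell from 12.23 ± 0.16 to 6.84 ± 0.17 and from 12.51 ± 0.04 to 7.46 ± 0.20. Iqub ended level with that median, so the size of its fall is uncertain too. Ccl9, a chemokine that attracts myeloid cells, measured 12.04, 12.28, 12.05, 11.76 and 12.17 in normal tissue and 7.24, 6.83, 7.58, 6.9 and 7.57 in papilloma. Vcam1, the adhesion molecule to which leukocytes bind, fell from 11.87 ± 0.08 to 7.65 ± 0.13 (18.6-fold, limma adjusted p = 1.76e-08). Slc7a10, an exchanger of small neutral amino acids, fell from 12.09 ± 0.09 to 7.65 ± 0.02, and Slc39a4, a zinc importer, from 11.56 ± 0.21 to 7.21 ± 0.37. Capsl, a calcium-binding gene, fell by 4.27 on the log2 scale and Cfap206, of the axoneme, by 4.31. In these genes the lowest normal array lay at least 3 log2 units above the highest papilloma array. Tmprss11a, a membrane serine protease (11.11 ± 0.12 to 5.72 ± 0.36), the kinase genes Stk32a (11.11 ± 0.15 to 6.44 ± 0.63) and Cdkl4 (10.82 ± 0.14 to 6.34 ± 0.17), and Vwa3a (10.98 ± 0.10 to 6.55 ± 0.10) had papilloma means below that median, so the size of these falls is uncertain.

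The machinery that makes protein rose together, from the synthesis of ribosomes to the charging of transfer RNA. Of 58 cytosolic ribosomal protein genes, 53 rose and 0 fell, against 17.0% and 16.3% of all genes (median 0.81, against 0.01 over all genes). Rplp0, a protein of the ribosomal stalk, measured 11.04, 10.87, 10.79, 10.59 and 10.78 in normal tissue and 12.52, 12.44, 12.54, 12.55 and 12.58 in papilloma (1.71, SE 0.08, limma adjusted p = 1.65e-10). Rpsa, a small subunit protein, rose by 1.56. Ribosomal protein genes have many processed pseudogenes, whose transcripts the probes may not separate. Of 62 genes that build ribosomes, 56 rose and 1 fell (median 1.06). The subunits of RNA polymerase I split: Polr1b rose by 1.98 and Polr1a, the catalytic subunit, fell by 0.52 on the log2 scale.

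Of 32 initiation and elongation factors, 24 rose and 0 fell (median 0.59), led by Eef1b2, an exchange factor for the elongation GTPase (1.29, SE 0.07). Eif4ebp1, which holds back cap-dependent initiation, also rose (1.21, SE 0.25). All but 1 of 18 aminoacyl-tRNA synthetase genes rose (17, median 0.73), with the valyl enzyme Vars (1.28) and the glutamyl-prolyl enzyme Eprs (1.22) ahead. In the mitochondria the rise was smaller. Of 71 mitochondrial ribosomal protein genes 39 rose and 3 fell (median 0.33), and 1 fell when any 1 of normal arrays 1 to 3 or papillomas 1, 2 or 4 was left out. Mrps27 (1.73, SE 0.23) was the only one past 2-fold, and Mrpl58, a peptidyl-tRNA hydrolase, fell by 0.55 on the log2 scale. The 69 respiratory chain and ATP synthase genes went both ways, 12 higher and 12 lower (median -0.02), none by 2-fold. Over all genes 17.0% rose and 16.3% fell, and examples from the list are the complex I subunits Ndufa10 (0.58) and Ndufa2 (-0.79).

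Within the Myc network, 8 of 13 measured genes rose and 1 fell, against 17.0% and 16.3% of all genes. Max, the obligate partner of Myc, measured 11.16, 11.11, 11.1, 11.15 and 11.07 in normal tissue and 11.99, 12.04, 12.16, 12.31 and 12.12 in papilloma (1.0, SE 0.07, limma adjusted p = 2.28e-08). The Max partners that oppose Myc rose too, Mxd1 by 0.85 and Mnt by 0.70. The carbohydrate-responsive factor gene Mlxipl fell by 0.48 on the log2 scale.

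Synthesis of serine, one-carbon units, nucleotides and polyamines rose in 23 of 38 genes and fell in 3, against 17.0% and 16.3% of all genes. Shmt1 (2.89) and Shmt2 (1.89), which split serine into glycine and a one-carbon unit, and the serine pathway enzyme Psat1 (2.06, SE 0.13) rose. Gldc, which takes glycine apart in the mitochondria, moved the other way and measured 10.34, 10.76, 10.88, 10.5 and 10.47 in normal tissue and 7.35, 7.61, 6.72, 7.25 and 6.95 in papilloma (10.6-fold lower, limma adjusted p = 1.03e-08). Asns, the asparagine synthetase and a target of the amino acid stress response, rose by 1.86 (SE 0.31). Most endoplasmic reticulum chaperones did not follow it: of the 27 genes of that list, which holds Asns, 4 rose and 10 fell (16 when only papilloma and normal arrays were fitted), among them the cochaperone Dnajc3 (-0.90) and the chaperone Hsp90b1 (-0.55).

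**Figure D3:**
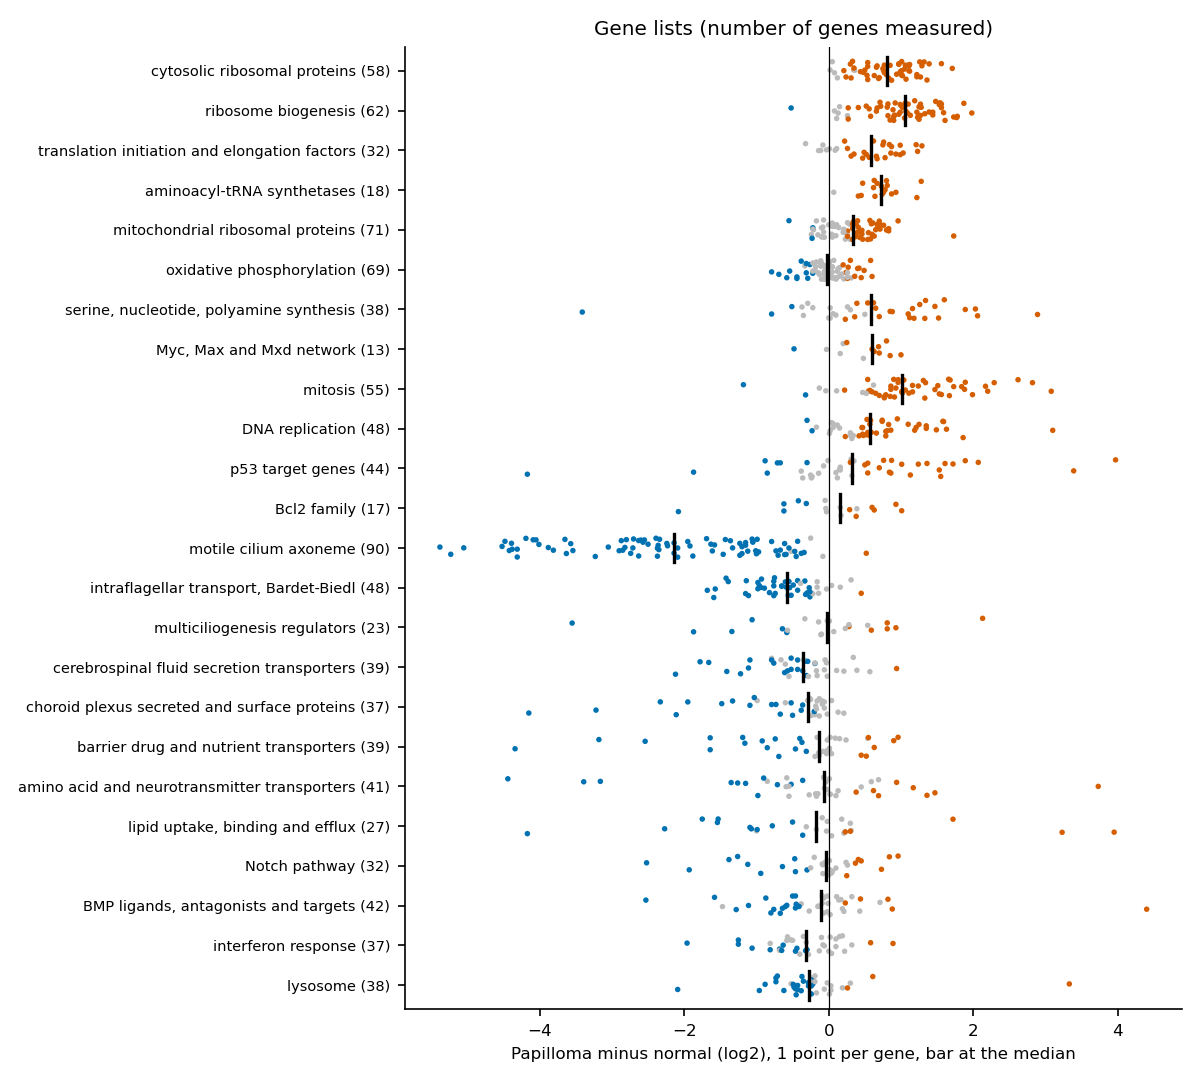
Log2 differences, papilloma minus normal, of the measured genes of 24 gene lists, 1 point per gene and a black bar at the median of each list. Orange and blue points are genes higher and lower in papilloma at a limma adjusted p under 0.05, grey points the others. Translation lists lie to the right of 0 and the motile cilium list to the left.

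Division genes rose in papilloma and inhibitors of division moved in opposite directions. Of 55 mitotic genes 47 rose and 2 fell (median 1.02), against 17.0% and 16.3% of all genes. Of 48 replication genes 34 rose and 2 fell (median 0.57). The 2 mitotic genes that fell became 1 without carcinoma 1, any 1 papilloma or any 1 normal array but array 3. The 2 replication genes that fell became 1 without any 1 of normal arrays 1 to 4 or papillomas 2, 3 or 5. The mitotic cyclin gene Ccnb2 measured 6.46, 7.17, 6.79, 6.93 and 6.95 in normal tissue and 9.98, 9.65, 9.85, 9.98 and 10.24 in papilloma. Dtl, which marks proteins for removal during replication, rose by 3.1 (SE 0.18) and the licensing factor gene Cdt1 by 1.86. Pttg1, the securin gene, fell by 1.18 on the log2 scale (SE 0.22, limma adjusted p = 0.000418). The E2F factors were divided. E2f3 (6.5 ± 0.19 to 8.77 ± 0.16) and the repressor E2f8 (1.07) rose, and E2f1 (9.47 ± 0.06 to 8.7 ± 0.10) fell with no overlap. Among the inhibitors of cyclin-dependent kinases, Cdkn1a, the main arrest gene below p53, measured 11.01, 10.58, 10.56, 10.59 and 10.56 in normal tissue and 12.8, 12.74, 12.74, 12.62 and 12.73 in papilloma. Cdkn2c, of the INK4 family, rose by 1.76, and Cdkn1c, a growth inhibitor of the Cip/Kip family expressed from the maternal allele, went from 10.38 ± 0.06 to 7.57 ± 0.21 (7.03-fold lower).

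Known targets of p53 rose more often than they fell, 21 against 7 of 44, against 17.0% and 16.3% of all genes. Psrc1, a spindle protein gene, went from 7.15 ± 0.22 to 11.12 ± 0.22, and Eda2r, a receptor of the tumour necrosis factor family, from 5.96 ± 0.22 to 9.35 ± 0.21. The RNA-binding protein gene Zmat3 rose by 1.61 (SE 0.11), the stress sensor gene Sesn2 by 1.53 and Dglucy, an enzyme of D-glutamate breakdown, by 1.55. These 6 targets, Cdkn1a included, were also higher in papilloma than in the p53-floxed carcinomas, by 2.87 for Cdkn1a (SE 0.21, limma adjusted p = 1.46e-06), 2.19 for Psrc1, 2.12 for Eda2r, 1.22 for Zmat3, 1.09 for Sesn2 and 2.29 for Dglucy. The naming rule could take members called in both comparisons, so for these 6 targets that result was in part fixed by the choice. Btg2, a target given below that also rose against normal tissue, was not called higher than in carcinoma. Among the 7 targets that fell against normal tissue were Pltp (-4.17), the largest change on the list, and Trp73, both given below. Over the whole list 19 genes were higher and 4 lower in papilloma than in carcinoma, against 5.17% and 6.24% of all genes. Of 17 Bcl2 family genes 6 rose and 5 fell. The death-promoting Bbc3 (7.08 ± 0.15 to 8.09 ± 0.24) and Bcl2l11 (0.93) rose, and the death-blocking Bcl2 fell from 11.54 ± 0.06 to 9.46 ± 0.26, while a second, dim probe set of Bcl2 differed by -0.14.

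**Figure D4:**
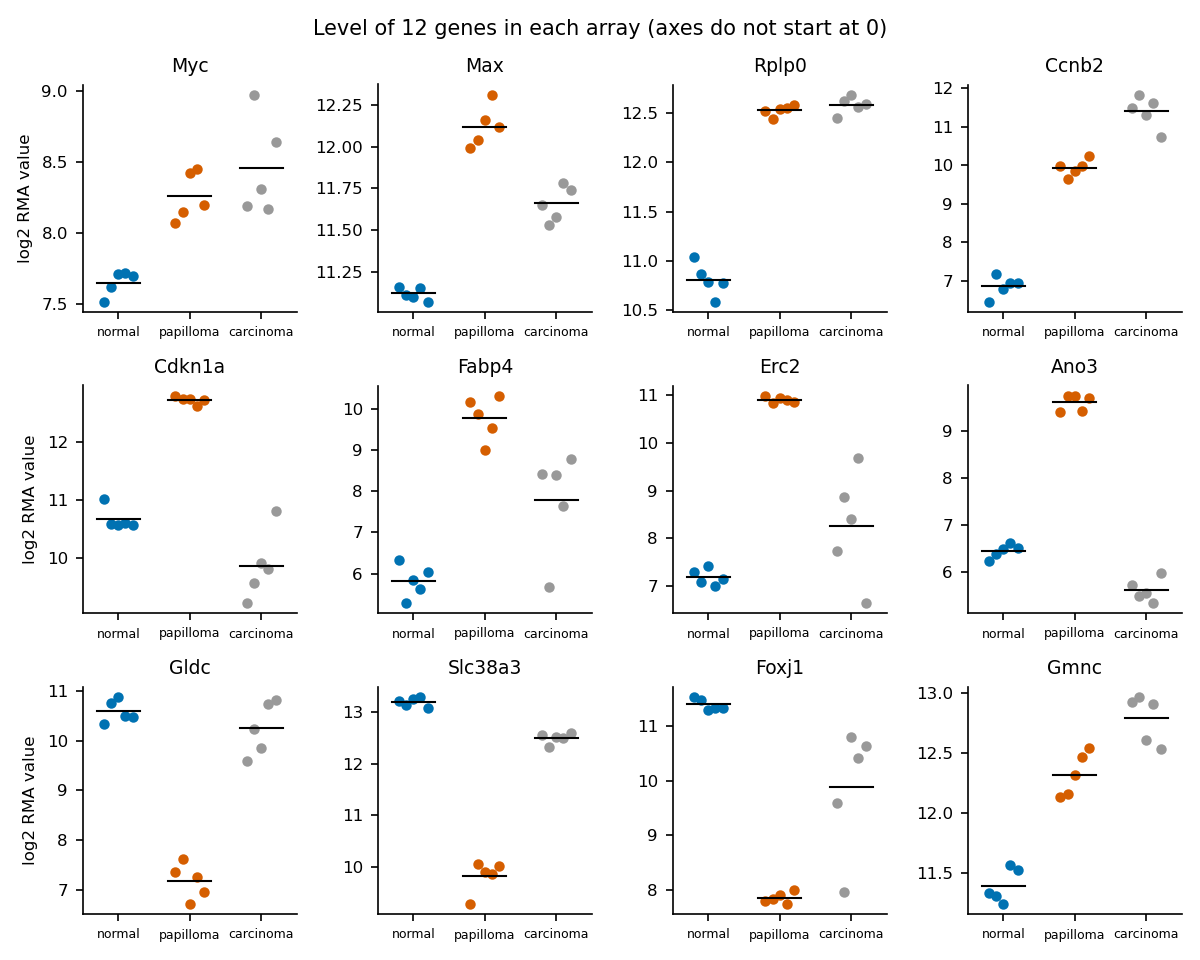
Log2 level of 12 genes in each normal (blue), papilloma (orange) and carcinoma (grey) array, 5 arrays per group, with a bar at each group mean. Papilloma points of Erc2, Cdkn1a and Ano3 lie above all normal and carcinoma points, and those of Gldc and Slc38a3 lie below all of them.

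Genes of motile cilia fell nearly as a whole. Of 90 axoneme genes measured, 86 fell and 1 rose (median -2.14), and 70 fell at least 2-fold, against 4.0% of all genes. The radial spoke gene Rsph4a fell from 11.56 ± 0.13 to 6.33 ± 0.21, Cfap52 from 12.17 ± 0.10 to 7.65 ± 0.20, the inner arm dynein chain Dnali1 from 11.96 ± 0.14 to 7.59 ± 0.23, and Meig1, named for meiosis, from 10.48 ± 0.11 to 6.09 ± 0.41. The intraflagellar transport and Bardet-Biedl genes, which serve primary cilia as well, fell less: 37 of 48 fell and 1 rose (median -0.58). The transition zone gene Tctn2 (-1.68) and Bbs5 (-1.59) fell most, and the transport particle gene Ift46 rose by 0.45. Without papillomas 2 and 4 the axoneme list had 84 genes lower. Ependymal cells, which line the ventricle beside the plexus, carry motile cilia too. Of 9 ependyma markers 6 fell and 0 rose, with a mean of 9.07 to 9.52 in normal tissue and 7.02 to 7.23 in papilloma. Among the 3 not called were Mia (0.44, SE 0.27) and Hdc (-0.11, SE 0.10), at limma adjusted p = 0.25 and 0.42. Mia passed the test when only papilloma and normal arrays were fitted. The part of ependymal cells in the fall of cilium genes was not tested.

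The regulators above these genes did not move one way, with 6 of 23 higher and 6 lower, against 17.0% and 16.3% of all genes. Foxj1, the transcription factor that switches on motile cilium genes, measured 11.54, 11.48, 11.3, 11.34 and 11.34 in normal tissue and 7.79, 7.83, 7.9, 7.75 and 7.99 in papilloma (11.7-fold lower, limma adjusted p = 2.36e-06). Trp73, a p53 family member needed for multiciliated cells, fell from 9.73 ± 0.12 to 7.86 ± 0.12. Gmnc, the factor that starts the multiciliated fate, rose from 11.39 ± 0.14 to 12.32 ± 0.18, and Deup1, a protein of the deuterosomes that multiply centrioles, by 2.13 (SE 0.27). Rfx2, a factor that binds the X-box, fell by 1.06 on the log2 scale. Papilloma minus carcinoma was -2.03 for Foxj1 (SE 0.38, limma adjusted p = 0.00281), with carcinoma values spread over 7.96 to 10.81, the lowest of them within the papilloma range.

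Upstream sequence of the axoneme genes was searched for the core of the X-box, the site of Rfx factors in ciliary promoters, written GTTGCCAT on either strand, in the 250 bases before each RefSeq start site (GRCm38.p6). The core was present for 10 of 72 axoneme genes that fell and had a promoter in the table (13.9%), and for 219 of 16990 genes overall (1.29%). Among the 32 transport and Bardet-Biedl genes that fell it was found in 0. The E-box CACGTG of Myc and Max, a palindrome, stood in 4 of 52 promoters of ribosome biogenesis genes that rose (7.69%), in 7.83% of all genes and in 10.9% of genes that rose. An E2F site, TTTGGCGC on either strand, stood in 4 of 30 replication genes that rose (13.3%) and in 0.659% of all genes. A match is a description of the letters and no evidence of binding. The 3 axoneme genes that hold the core and fell most are shown 5′ to 3′ on the strand of the gene, with the core in capitals.
Mlf1: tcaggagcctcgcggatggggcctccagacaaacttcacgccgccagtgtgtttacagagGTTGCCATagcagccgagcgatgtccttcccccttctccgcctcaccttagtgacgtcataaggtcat
Lrriq1: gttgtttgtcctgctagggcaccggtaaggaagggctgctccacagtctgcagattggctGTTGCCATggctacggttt
Cfap44: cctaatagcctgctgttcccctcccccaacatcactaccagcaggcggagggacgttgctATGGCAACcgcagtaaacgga
The Mlf1 sequence is chr3:67373932-67374059 on the plus strand, with the core ending 97 bases before the start site. Lrriq1 is chr10:103236323-103236401 on the minus strand, with 11 bases between core and start, and Cfap44 is chr16:44394718-44394798 on the plus strand, with 13 bases, its core on the opposite strand. Mlf1, named for myeloid leukaemia, fell from 9.99 ± 0.12 to 5.51 ± 0.24. Lrriq1 fell from 11.46 ± 0.24 to 7.27 ± 0.48 and Cfap44 from 10.8 ± 0.20 to 6.78 ± 0.06, with no overlap in any of the 3.

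The transport functions of the epithelium fell in part. Of 39 genes of fluid secretion 20 fell and 1 rose (median -0.36), against 16.3% and 17.0% of all genes. Car2, the cytosolic carbonic anhydrase, went from 13.59 ± 0.02 to 11.47 ± 0.66, the calcium pump gene Atp2b3 fell by 1.78 (SE 0.17) and the sodium pump subunit gene Atp1b2 by 1.41 on the log2 scale. Slc4a2, the basolateral anion exchanger, fell from 12.33 ± 0.05 to 11.11 ± 0.20. Of 37 secreted and surface proteins 17 fell and 0 rose. Ace, the angiotensin-converting enzyme, measured 13.79, 13.87, 13.84, 13.81 and 13.87 in normal tissue and 11.69, 11.53, 11.91, 10.84 and 11.57 in papilloma. Ltc4s, the leukotriene C4 synthase, fell by 4.15 on the log2 scale (SE 0.15), Cp, which encodes ceruloplasmin, by 2.11 and the growth factor binding gene Igfbp4 by 1.95.

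Of 39 factors that mark the identity of the plexus, 11 fell and 2 rose (median -0.20), against 16.3% and 17.0% of all genes. Foxj1 and Hopx were the 2 that fell at least 2-fold, a share near the 4.0% of all genes. The homeodomain-only gene Hopx fell from 8.68 ± 0.24 to 7.07 ± 0.37, the inhibitor of basic helix-loop-helix factors Id4 by 0.87 (SE 0.18) and the Notch effector Hes1 by 0.64 on the log2 scale, and the homeobox gene Irx3 rose by 0.85 (SE 0.13). Hoxa2, which patterns the hindbrain, fell from 7.36 ± 0.25 to 6.17 ± 0.10 and Hoxb3 by 0.60, the only called genes of 25 Hox genes with all arrays. Of 26 imprinted growth genes 11 fell and 2 rose. With Cdkn1c fell Dlk1, a Notch-like membrane protein (-1.93, SE 0.36), Nnat (-1.35) and Peg3 (-1.33), and Grb10, an adaptor that dampens growth factor receptors, rose from 10.56 ± 0.09 to 11.76 ± 0.10.

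Barrier transporters for drugs and nutrients were lower in 15 and higher in 6 of 39 genes, against 16.3% and 17.0% of all genes. Slc22a8, an organic anion transporter that clears drugs from cerebrospinal fluid, fell from 11.41 ± 0.28 to 8.24 ± 0.41, and Slc23a2, the vitamin C carrier, from 12.93 ± 0.11 to 11.29 ± 0.26. Slc29a4, a monoamine transporter, rose from 12.54 ± 0.11 to 13.17 ± 0.06. Amino acid carriers went both ways, 8 higher and 11 lower of 41. Slc38a3, a glutamine transporter, measured 13.22, 13.15, 13.26, 13.3 and 13.08 in normal tissue and 9.28, 10.05, 9.89, 9.85 and 10.02 in papilloma (10.4-fold lower, limma adjusted p = 1.66e-11). The cystine importer gene Slc7a11 fell by 3.16 (SE 0.43), and Slc7a6, an exchanger of cationic amino acids, rose by 1.47 (SE 0.12). Thus single carriers changed up to 21.8-fold while the median of that list was -0.07.

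Genes of lipid uptake, binding and efflux went both ways, while over all genes 17.0% rose and 16.3% fell. Fabp4, the fatty acid binding protein of adipocytes and of some endothelia, measured 6.33, 5.3, 5.84, 5.64 and 6.03 in normal tissue and 10.17, 9.88, 9.0, 9.54 and 10.31 in papilloma. Lpl, the lipoprotein lipase, went from 7.98 ± 0.41 to 11.22 ± 0.10, and Cd36, a fatty acid receptor, from 6.09 ± 0.15 to 7.81 ± 0.59. Fabp4 and Cd36 were also higher in papilloma than in carcinoma, by 2.01 (limma adjusted p = 0.00946) and 1.92 (limma adjusted p = 5.73e-05). Pltp, a phospholipid transfer protein, fell from 12.99 ± 0.04 to 8.82 ± 0.52, and the apolipoprotein gene Apod (-2.27, SE 0.52) and the receptor gene Vldlr (-1.75) fell with it. Over the 27 genes of that list 5 rose and 11 fell, and 3 rose when any 1 of normal arrays 2 to 5 or papillomas 3 to 5 was left out. Cholesterol and fatty acid synthesis split evenly, with 10 higher and 9 lower of 30 (5 lower without papillomas 2 and 4), among them the fatty acid synthase gene Fasn (1.27) and the elongase gene Elovl5 (-1.05).

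Glucose and stress genes gave a mixed picture, to be read against 17.0% higher and 16.3% lower over all genes. Of 34 glycolysis and hypoxia genes 12 rose and 4 fell (median 0.11), and 2 fell when any 1 of normal arrays 1 to 4, papillomas 2 to 4 or carcinoma 1 was left out. Besides Egln3, hexokinase Hk2 went from 6.95 ± 0.25 to 8.66 ± 0.39 and the lactate carrier Slc16a1 from 10.42 ± 0.19 to 11.39 ± 0.16, while Epas1, a hypoxia-inducible factor subunit, fell by 1.13 (SE 0.21). Immediate early genes, which answer stimulation within minutes, rose in 7 of 30 cases and fell in 0. That count was 3 without normal array 2 or 3 and 4 without normal array 4 or 5. Btg2, an antiproliferative gene that is also a p53 target, rose from 9.47 ± 0.12 to 11.19 ± 0.24 and Jun by 1.25 (SE 0.21). Antioxidant genes rose in 10 and fell in 9 of 33 (5 fell without papillomas 2 and 4), with the mitochondrial peroxiredoxin Prdx3 higher (0.95, SE 0.13) and the extracellular superoxide dismutase Sod3 lower (-1.2, SE 0.30). Among 19 clock genes Npas2 fell by 1.8 on the log2 scale and Csnk1e, a kinase of the clock, was the only one that rose with all arrays (0.56).

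Enzymes that place sialic acid and xylose on proteins and lipids changed in shares near those of all genes. Of 26 sialyl- and xylosyltransferases 4 rose and 5 fell, against 17.0% and 16.3% of all genes. St8sia6 measured 6.84, 6.55, 6.47, 6.16 and 6.61 in normal tissue and 10.54, 10.58, 10.68, 11.94 and 10.43 in papillomas 1 to 5, and St6galnac2 fell from 11.39 ± 0.10 to 9.23 ± 0.31. St6galnac2 was also lower in papilloma than in carcinoma (papilloma minus carcinoma -1.89, SE 0.13, limma adjusted p = 1.4e-06).

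Junction and matrix genes changed gene by gene, while over all genes 17.0% rose and 16.3% fell. Of 39 tight junction and cadherin genes 7 rose and 14 fell. N-cadherin, Cdh2, rose from 9.14 ± 0.14 to 10.89 ± 0.06 and Cldn9, a claudin, by 1.61 (SE 0.33), while the junction scaffold gene Tjp3 fell from 11.06 ± 0.10 to 8.63 ± 0.15 and Marveld3, a tight junction membrane protein gene, by 1.43. Of 38 integrin, laminin and basement membrane genes 9 rose and 12 fell, with laminin Lama1 higher (1.57, SE 0.38) and fibronectin Fn1 (-1.99) and nidogen Nid2 (-1.99) lower. Of 40 collagen genes 6 rose, led by Col14a1 (2.0, SE 0.38), and 12 fell, led by Col8a2 (9.89 ± 0.08 to 6.67 ± 0.05). Fibroblast markers fell in 9 and rose in 4 of 15 genes, and their mean was 9.28 to 9.56 in normal tissue and 8.74 to 8.94 in papilloma. In whole tissue, fewer cells of a type and less RNA per cell cannot be told apart. The meningeal markers given above were lower in the same arrays, and their part in these matrix genes was not tested. Acta2, the smooth muscle actin, rose from 9.89 ± 0.51 to 12.5 ± 0.41. With all arrays, 4 of the 13 measured markers of pericytes and smooth muscle rose and 4 fell (median 0.12). Acta2 was the only one of them that changed at least 2-fold. Endothelial markers rose in 11 and fell in 2 of 21 genes (1 fell without any 1 array other than normal array 2, papilloma 2, carcinoma 2 or carcinoma 5), with the tip cell genes Apln (6.39 ± 0.17 to 8.81 ± 0.47) and Esm1 (2.09) ahead and the barrier transporter Slco1a4 lower (-1.64, SE 0.33).

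Signalling genes changed in both directions, against shares of 17.0% higher and 16.3% lower over all genes. Dkk3, a secreted Dickkopf family protein, measured 9.42, 9.09, 9.09, 9.1 and 9.07 in normal tissue and 12.36, 12.27, 12.52, 12.28 and 12.11 in papilloma (3.15, SE 0.47). Wnt5a rose by 1.1 and Rspo3, which strengthens Wnt signals, fell by 1.38 on the log2 scale. Of 57 Wnt pathway genes 8 rose and 15 fell, and 5 rose without normal array 2. Bmp6 fell from 12.54 ± 0.08 to 10.02 ± 0.51 and Bmp5 from 8.05 ± 0.23 to 6.48 ± 0.06, both secreted bone morphogenetic proteins, against the rise of their antagonist Chrdl1. That list had 5 genes higher and 16 lower of 42. In the Notch pathway 7 of 32 rose and 10 fell. The target gene Hey2 fell from 11.14 ± 0.07 to 8.62 ± 0.73, the modifier Lfng by 1.38 (SE 0.20) and the ligand Jag2 by 1.26, and the ubiquitin ligase gene Dtx1 rose by 0.96. Hedgehog genes rose in 3 and fell in 4 of 19 cases, near the shares of all genes. They fell in 2 without normal array 4 or without papilloma 4, and the coreceptor Boc was lower (-1.69, SE 0.29).

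Growth factor genes and receptors rose in 11 and fell in 17 of 58 cases, against 17.0% and 16.3% of all genes. Their count of rises was 7 without normal array 2. Vegfd, a lymphatic growth factor, rose by 1.82 (SE 0.19), the receptor kinase Kit from 9.12 ± 0.31 to 10.85 ± 0.35 and the ligand gene Fgf7 by 1.42. Pdgfb fell from 10.27 ± 0.29 to 8.06 ± 0.21 and the neurotrophin receptor Ntrk2 by 1.59 on the log2 scale.

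Several immune genes were lower in papilloma, while some genes of class I antigen presentation were higher. The shares over all genes were 16.3% lower and 17.0% higher. Of 37 interferon response genes 12 fell and 2 rose, among them the viral RNA sensor Ifih1 (-1.25, SE 0.23) and Xaf1 (-1.96). The count of lower genes in this list was 6 without papillomas 2 and 4, 20 when only papilloma and normal arrays were fitted and 20 when carcinoma 4 was left out of the shared spread. The count of higher genes was 1 without any 1 of normal arrays 1, 3, 4 or 5 or papillomas 3 to 5. Of 19 antigen presentation genes 3 rose and 6 fell. The class II chains H2-Ab1 (9.67 ± 0.32 to 8.17 ± 0.36), H2-Aa (-1.03) and H2-Eb1 (-0.83) and the peptide transporter Tap2 (-0.68) fell. Nlrc5, the activator of class I genes, rose from 6.85 ± 0.20 to 8.34 ± 0.25, the class I heavy chain H2-K1 from 11.03 ± 0.18 to 12.34 ± 0.29 and B2m, its light chain, by 0.61. Alleles that differ between C57Bl/6 and 129 mice can change probe binding, and whether any did so here was not tested. Of 20 complement genes 7 fell and 0 rose, led by the scavenger Colec12 (-2.72) and the C1 inhibitor Serping1 (-2.32). Chemokine genes and receptors fell in 10 and rose in 2 of 39 cases. With dim genes left out 5 chemokine and 4 complement genes fell, and 4 chemokine genes rose without papilloma 5 or carcinoma 4. Besides Ccl9, Cxcl16 fell from 9.56 ± 0.14 to 8.04 ± 0.12 and the scavenging receptor Ackr3 by 1.2 on the log2 scale. Macrophage and microglia markers gave few calls: 1 of 23 rose and 2 fell (1 without papillomas 2 and 4, 4 without carcinoma 2, 6 when only papilloma and normal arrays were fitted), and their mean was 7.7 to 7.9 in normal tissue and 7.76 to 7.88 in papilloma. The gene that rose was Gpnmb, a glycoprotein of macrophages and of some tumours (8.2 ± 0.25 to 11.52 ± 0.54). T and natural killer cell markers were at 6.17 to 6.35 and 6.15 to 6.26 and B cell markers at 6.11 to 6.33 and 6.23 to 6.36, all below the median of all probe sets. Of 38 lysosomal genes 22 fell and 3 rose, with cathepsin Ctsh (-2.09) and the acid lipase Lipa (-0.88) lower.

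Papilloma differed from carcinoma directly in 2530 genes (11.4%), and 496 of the 1652 genes that changed at least 2-fold against normal were among them. Without papillomas 2 and 4 the count was 1587. Normal arrays do not enter this difference other than through the shared spread. The same 5 papilloma arrays enter it and the difference from normal tissue, so the 496 genes called in both are not an independent result. Ano3, a scramblase of the anoctamin family, measured 6.23, 6.38, 6.48, 6.61 and 6.5 in normal tissue, 9.42, 9.76, 9.75, 9.44 and 9.72 in papilloma and 5.72, 5.47, 5.54, 5.34 and 5.97 in carcinoma, and was 4.01 higher in papilloma than in carcinoma (SE 0.12, limma adjusted p = 1.57e-11). Erc2 was 2.65 higher in papilloma than in carcinoma, the cyclic GMP kinase gene Prkg1 2.42 higher (10.55 to 11.02 in papilloma and 6.26 to 9.1 in carcinoma), and the X-linked neuronal gene Nexmif 2.57 higher (8.75 to 9.75 and 5.68 to 7.51). Sphkap, an anchor protein of protein kinase A, was 2.45 higher (8.88 to 10.36 and 6.58 to 8.03). In the other direction, Gldc was at 9.58, 10.23, 9.86, 10.74 and 10.82 in carcinoma, close to its normal level, with papilloma minus carcinoma at -3.07 (limma adjusted p = 1.47e-06). Slc38a3 was at 12.32 to 12.6 in carcinoma, a difference of -2.68. Renbp, a renin-binding protein and sugar epimerase, went from 9.59 ± 0.30 in normal tissue to 7.47 ± 0.65 in papilloma and was at 9.62 to 11.51 in carcinoma. Npnt, a basement membrane ligand of integrins, was at 9.48 to 9.9, 7.56 to 8.42 and 10.59 to 11.37 in the same order. Gpc3, a glypican of the cell surface, differed by -3.56 between papilloma (6.42 to 6.78) and carcinoma (8.36 to 12.1), and its difference from normal tissue (-1.51, limma adjusted p = 0.0398) was above the threshold, at an adjusted p of 0.0596 to 0.075, when any 1 normal or papilloma array was left out. Stk32a was at 8.95 to 10.09 in carcinoma, a papilloma minus carcinoma difference of -2.83. These genes were chosen among those without overlap between papilloma and carcinoma arrays, so that separation was fixed by the choice. In each of them the papilloma arrays did not overlap the normal arrays either.

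**Figure D5:**
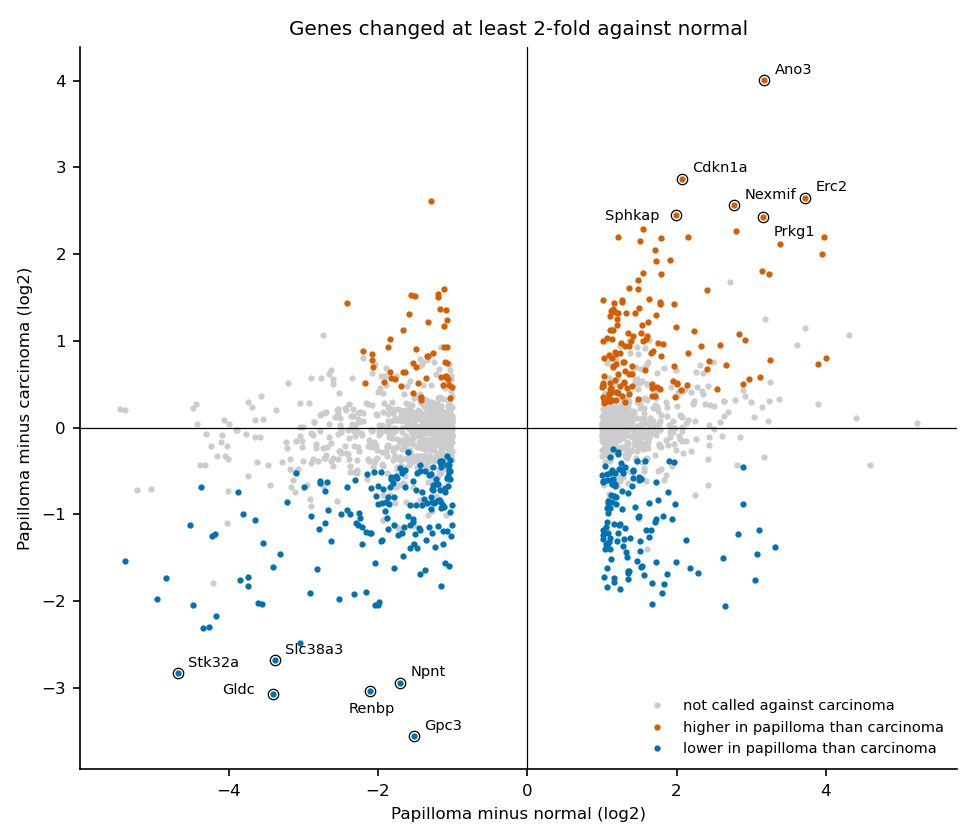
Papilloma minus normal (horizontal) against papilloma minus carcinoma (vertical) log2 differences of the 1652 genes that changed at least 2-fold against normal at a limma adjusted p under 0.05. Coloured points also differ between papilloma and carcinoma at that threshold (orange higher, blue lower in papilloma), grey points do not, and the genes named by their difference from carcinoma are labelled. The same papilloma arrays enter both axes.

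Among themselves the papillomas differed in sex-linked transcripts, given above, and in neuronal genes. Sex-linked and predicted genes were then left out, as were genes with a papilloma mean below the median of all probe sets. Of the 8 genes with the largest SD over the 5 papillomas among the rest, Snap25, a synaptic fusion protein gene, measured 7.2, 12.78, 8.6, 11.8 and 9.0 in papillomas 1 to 5, and Scg3, a granule protein gene, 5.62, 9.99, 6.52, 8.32 and 5.4. Both are high in papillomas 2 and 4 and low in the others, as are Gabra6, Cbln3, Calb1, Vsnl1 (6.72, 11.29, 7.37, 10.63 and 7.7) and Cdr1 (5.91, 10.62, 7.15, 10.02 and 7.78). Prkcb, a protein kinase C gene, measured 7.16, 9.56, 7.16, 11.81 and 7.3, highest in papilloma 4. Genes that changed against normal tissue were even or uneven across the tumours: Slc7a10 spanned 7.61 to 7.68 and Cdkn1a 12.62 to 12.8 over the 5 papillomas, while St8sia6 spanned 10.43 to 11.94 and Fabp4 9.0 to 10.31.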

How the data were processed

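RNA of snap-frozen tissue was labelled and hybridised to whole-transcript mouse arrays, 1 sample per array. The authors deposited log2 values per probe set, made with RMA in Affymetrix Expression Console per the submitters' processing notes. Genome build and annotation version are not given in the sources used here. Probe sets were named from the platform annotation (1814 had several symbols and 16010 none, and were left out), and 23328 of those with 1 symbol matched RefSeq. From the deposited log2 values limma 3.58.1 in R 4.3.3 was fitted to all 15 arrays with group as the only term (lmFit and eBayes, no trend, two-sided, 12 residual degrees of freedom), with Benjamini-Hochberg adjustment over 22180 genes. The code was tested on simulated data. Fold changes are 2 to the power of the log2 difference. Members and gene lists were chosen with earlier results of these data known, so list counts are descriptions and no list was tested.

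Predicted genes, small RNAs and receptor segments were left out of the rule for naming genes. It took the 12 largest rises and falls without overlap. The 10 largest each, also without overlap, were added with both means above the median of all probe sets. Each list gave up to 5 called members in its main direction and 3 in the other. Members called in both contrasts could be named besides these. Myc, Atoh1, Ttr and Cdkn1a and the 8 genes most variable in papilloma were added. Last came the 6 highest and 6 lowest against carcinoma, among genes changed at least 2-fold against normal and without overlap with carcinoma. Xist, Uty, Mia, Hdc, Rfx2 and Cfap44 fall outside this rule and were chosen after their values were seen. Alternatives were other normalization and centring, arrays, variance models, array weights, a replicate block, a filter on dim genes, the mean of probe sets and leaving out arrays. Leaving out papillomas 2 and 4 together, or a carcinoma array, was chosen after seeing the data. Equal replicate numbers did not pair the arrays: deviations from the group means of papilloma and normal arrays of 1 number correlated at -0.0962 to 0.0451.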

Additional observations from a re-analysis of the deposited data

Results flagged for a closer look

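Single arrays stood apart in 22 of the 384 groups of 5 arrays looked at, 1 group of normal and 1 of papilloma arrays for each of 192 named genes, where the gap to the nearest other array was over 0.71 of the range of the group. Chance gives about 1 such group in 20, so this number is near what chance gives.

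A single normal array was far above the other 4 for Bmp5 in array 1 at 8.46 (nearest other array 8.0), Cdkn1a in array 1 at 11.01 (nearest other array 10.59) and Cfap44 in array 4 at 11.14 (nearest other array 10.75). The same held for Cfap52 in array 4 at 12.34 (nearest other array 12.15), Dkk3 in array 1 at 9.42 (nearest other array 9.1) and Mnt in array 5 at 8.94 (nearest other array 8.78). So it was for Npas2 in array 1 at 9.88 (nearest other array 9.56), Peg3 in array 5 at 12.46 (nearest other array 12.27) and Slc7a6 in array 5 at 10.38 (nearest other array 10.16). A single normal array was far below the rest for Cd36 in array 3 at 5.83 (nearest other array 6.12), Cxcl16 in array 4 at 9.31 (nearest other array 9.6) and Tap2 in array 1 at 8.51 (nearest other array 8.83). A single normal array was far below the rest for Uty in array 5 at 7.98 (nearest other array 10.09).

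A single papilloma was far above the other 4 for Btg2 in array 1 at 11.62 (nearest other array 11.13), Ctsh in array 4 at 8.25 (nearest other array 7.43) and Hes1 in array 1 at 8.75 (nearest other array 8.35). Likewise high was Slc47a1 in array 3 at 7.44 (nearest other array 7.05) and St8sia6 in array 4 at 11.94 (nearest other array 10.68). A single papilloma was far below the rest for Cldn9 in array 1 at 11.83 (nearest other array 12.23), Kit in array 1 at 10.23 (nearest other array 10.95) and Slc38a3 in array 1 at 9.28 (nearest other array 9.85). Likewise low was Sod3 in array 4 at 10.85 (nearest other array 11.39). Of the 9 such papilloma values 3 came from papilloma 2 or 4, and of the 13 normal values 5 came from normal array 1.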

How the results depend on the processing

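Under all 24 alternatives the counts of genes called higher and lower in papilloma stayed within 1.5 times the reported ones. With quantile normalization they were 3982 and 3583, with a common median 4396 and 3159, with array quality weights 4641 and 4331, and over the arrays left out in turn 3376 to 3967 and 3263 to 3862. The replicate number is no pairing in these data, and with it as a block the counts were 3642 and 3538, with no recomputed gene losing its call. Differences were recomputed for 182 genes against normal tissue and 21 against carcinoma, and no called one changed direction under an alternative. Of these 4850 values 11 lost the call, all of Gpc3 against normal tissue, and 4 gained one (Ttr and Mia).

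Of 2567 recomputed counts 142 moved by more than 1.5 times, most of them counts of a few genes. Leaving out papillomas 2 and 4 gave 1587 genes called against carcinoma, 22 presynaptic genes, 14 neuron markers, 6 interferon genes and 1 macrophage marker lower. The cause was not tested. Fitting only papilloma and normal arrays gave 16 endoplasmic reticulum, 20 interferon and 6 macrophage genes lower, with another estimate of the spread. Without dim genes, fewer members were tested, and 4 complement, 5 chemokine and 3 neuron genes were lower. Over the arrays left out in turn the counts ranged from 3 to 8 immediate early genes higher, and, lower, from 2 to 5 Hedgehog, 7 to 13 presynaptic, 8 to 20 interferon, 5 to 11 neuron and 2 to 4 macrophage genes.

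Whole tissue cannot show in which cells a transcript changed, the normal group differs from papilloma in the floxed p53 allele as well as in Cre, and signals near the median of all probe sets carry folds of uncertain size.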
